A study of Homo sapiens with 6 samples.

Results

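The amino acid stress response was followed through 10 genes, written here as the 10 members, in parental Huh7 cells (Huh7 P), a line from a human hepatocellular carcinoma, and in Huh7 LR, a lenvatinib-resistant line derived from it. The members were chosen by symbol as ATF4 and genes that it is known to switch on, and all 10 were found among the 26184 genes and loci of the table. RNA from 3 samples of each line was sequenced after poly(A) selection. The Huh7 P samples are labelled as untreated, and the Huh7 LR samples as continuously exposed to lenvatinib, a multikinase inhibitor, from 1 to 20 μM for 10 months. Both lines carry the genotype label WT and are the same cell line by label. Huh7 LR is a single derived line, so the 3 samples of a line measure the spread between cultures and not between separately selected lines. By the study's methods, Huh7 LR was kept in medium with lenvatinib at 20 μM once established, so that the difference between the lines and the presence of the drug cannot be told apart here. The sources used here do not say whether Huh7 P was passaged in parallel, or whether the drug was withdrawn before RNA was taken.

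ATF4 is a transcription factor whose protein is made mainly when eIF2alpha, a translation initiation factor, is phosphorylated, for example by GCN2 when uncharged tRNAs build up or by PERK during endoplasmic reticulum stress. Its targets bring amino acids into the cell, make asparagine, serine and other amino acids, charge tRNAs, and, in stronger or longer stress, include the transcription factor CHOP, the product of DDIT3. Because ATF4 is controlled largely at translation, its mRNA is not a direct readout of its protein.

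ATF4 and its C/EBP partners bind DNA at a composite element with the core TGATGNAA, which is TTNCATCA on the other strand. This core was searched on both strands in RefSeq windows from 250 bases before to 50 bases after each start (GRCh38.p14), and all 10 members matched, with 17 windows. It was present in 3 of these 17 windows, those of ASNS, CHAC1 and SLC3A2, against 3.62% of the 35116 windows of all genes. The ASNS and CHAC1 matches precede the RefSeq start of their window and are shown with short flanks, since the test below called ASNS lower and did not call CHAC1. The capitals mark the core. The ASNS stretch is chr7:97872458-97872487 on the minus strand, with the first base of the core at -68 from that start, and the CHAC1 stretch is chr15:40953251-40953280 on the plus strand, with that base at -209. Both stretches lie within the longer GENCODE gene bounds given below and overlap annotated UTR in 4 of 17 ASNS transcripts and 2 of 5 CHAC1 transcripts, which start further upstream.
ASNS: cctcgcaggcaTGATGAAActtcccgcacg
CHAC1: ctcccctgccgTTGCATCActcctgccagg
In SLC3A2 the core (TTACATCA) begins at base 38 from a start, inside the transcript. A match describes letters only, and no match says nothing of sites outside the window.

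The libraries held 62738937 to 71427573 counts. CPM stands for a count scaled to the size of its library, with edgeR's TMM factors, and edgeR's quasi-likelihood test was run across 17531 genes and loci. A gene is called higher or lower in Huh7 LR at a Benjamini-Hochberg adjusted p under 0.05, and past 2-fold where its log2 fold change was also above 1 or below -1 and its adjusted p under 0.001. All 9 hepatoma markers examined were measured, and 5 of them were higher in Huh7 LR, beside 23.3% of all genes and loci tested (GPC3, a mean of 674 CPM in Huh7 P and 1547 CPM in Huh7 LR, ALB, TTR, APOA1 and TF). The call of TF was lost in limma-trend on FPKM (adjusted p = 0.0699 and 0.0689 with pseudocounts of 0.1 and 1). AFP did not pass (log2 fold change -0.23). It was lower with replicate number as a block (adjusted p = 0.0221) and without Huh7 P replicate 1 (adjusted p = 0.00992, both from edgeR's test). The 9 markers had summed levels of 39917 to 49706 CPM in Huh7 P and 52804 to 54791 CPM in Huh7 LR. Summed fibroblast markers lay at 2.16 to 2.28 CPM in Huh7 P and 5.02 to 8.02 CPM in Huh7 LR, with COL1A1 at 1.05 to 1.48 CPM and 3.63 to 6.2 CPM, PDGFRB at 0.711 to 0.872 CPM and 1.37 to 1.56 CPM, and DCN and THY1 at 0 in every library. COL1A2, LUM and COL3A1 had too few counts to test. Their means were 0.0849, 0.0102 and 0.027 CPM in Huh7 P and 0.0144, 0 and 0.155 CPM in Huh7 LR. Leukocyte markers summed to 62.4 to 67.7 CPM in Huh7 P and 10.2 to 14 CPM in Huh7 LR, with LYZ at 60.2 to 65.5 CPM and 7.74 to 10.1 CPM and CD14 at 1.77 to 2.06 CPM and 1.91 to 3.45 CPM, and with TYROBP and HLA-DRA at 0. Endothelial markers summed to 38.8 to 47.5 CPM in Huh7 P and 65 to 71.2 CPM in Huh7 LR, nearly all of it PECAM1 beside VWF at 0.371 CPM or less, with CDH5, KDR and TEK at 0. The part of these markers in the results was not tested.

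Of the 10 members, 6 were lower in Huh7 LR, 2 were higher and 2 did not pass the test. Without Huh7 LR replicate 3 only 3 were lower (ASNS, PSAT1 and SLC7A5). Both transport and synthesis genes were among the lower members (SLC7A5, ASNS, PSAT1, PHGDH), with TRIB3 and ATF4 itself, whereas DDIT3 and SESN2 were higher. Over all genes and loci tested, 22.4% were lower, 23.3% were higher and 45.7% were called in either direction. The median log2 fold change of the members was -0.32, and that of all genes and loci tested was 0.00. In 8 members the libraries of the lines did not overlap in CPM, as was the case for 55.9% of all genes and loci. Only SLC7A5 and DDIT3 passed 2-fold, 1 in each direction, against 6.21% of all genes and loci tested (4.43% past 2-fold higher and 1.78% lower). In these bulk samples, fewer cells expressing a gene and less RNA per cell cannot be told apart.

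**Figure D1:**
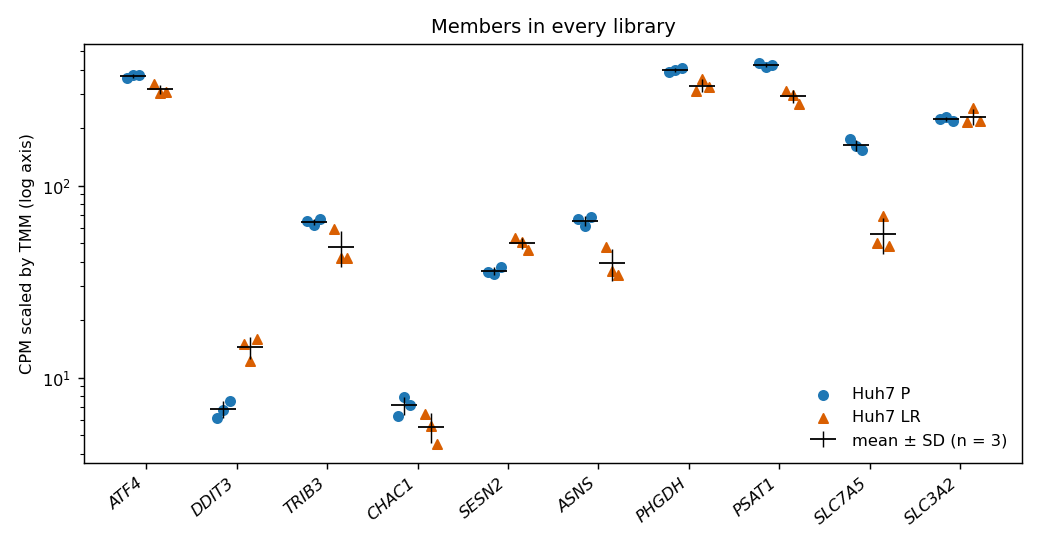
TMM-scaled CPM of the 10 members (log axis) in the 3 Huh7 P libraries (circles) and the 3 Huh7 LR libraries (triangles), with black bars for the mean ± SD. SLC7A5 lies at 153 to 175 CPM in Huh7 P and 48.2 to 69.6 CPM in Huh7 LR, and DDIT3 at 6.15 to 7.56 and 12.2 to 15.9 CPM.

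ATF4 (ENSG00000128272, chromosome 22, 39519695 to 39522685, plus strand, GRCh38) encodes the factor itself. Its levels were 363, 376 and 376 CPM in the Huh7 P libraries and 338, 304 and 308 CPM in the Huh7 LR libraries. Each Huh7 LR library lay below each Huh7 P library, and the difference was small, with a log2 fold change of -0.23 (SE 0.07, edgeR quasi-likelihood adjusted p = 0.0172). The call did not hold in 5 of 14 alternative analyses. It was lost without Huh7 LR replicate 3 (adjusted p = 0.0805), without Huh7 P replicate 2 (adjusted p = 0.0859) and without Huh7 P replicate 3 (adjusted p = 0.0529, all from edgeR's test). On the authors' FPKM values, which are scaled for transcript length, the lines overlapped, with 182 to 231 FPKM in Huh7 P and 154 to 198 FPKM in Huh7 LR, and limma-trend on log2(FPKM + 0.1) gave a log2 fold change of -0.18 (adjusted p = 0.214), in a test that called 48.3% of its genes and loci in either direction.

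DDIT3 (ENSG00000175197, chromosome 12, 57516588 to 57521737, minus strand) encodes CHOP, a transcription factor of sustained stress that can promote cell death. It stood at 6.15, 6.81 and 7.56 CPM in Huh7 P and at 15, 12.2 and 15.9 CPM in Huh7 LR. This was a rise from 6.84 ± 0.705 to 14.4 ± 1.94 CPM (SD, n = 3 each), or 2.10-fold, with every Huh7 LR library above every Huh7 P library (log2 fold change 1.07, SE 0.13, edgeR quasi-likelihood adjusted p = 7.19e-05). The log2 fold change stayed between 0.99 and 1.18 in the 14 alternatives, all of which kept the call. It came to 0.99 without Huh7 LR replicate 3 and to no more than 1.00 without Huh7 P replicate 1, where DDIT3 was no longer past 2-fold. DDIT3 shares 355 exon bases (27.2% of its own) with MARS and 58 with MBD6, both on the opposite strand. The strand setting of the counts is not given in the sources used here, so the gene of origin of reads in the shared bases is uncertain. MARS had a mean of 241 CPM in Huh7 P and 233 CPM in Huh7 LR (log2 fold change -0.05, adjusted p = 0.575), and MBD6 had 51.1 and 85.2 CPM (log2 fold change 0.74, adjusted p = 5.96e-05, both from edgeR's test). The part of either in the DDIT3 count was not tested.

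SESN2 (ENSG00000130766, chromosome 1, 28259527 to 28282491, plus strand) encodes sestrin 2, a leucine-binding protein that restrains mTORC1. SESN2 had 35.4, 34.7 and 37.9 CPM in Huh7 P and 53.2, 50.6 and 46.4 CPM in Huh7 LR, again without overlap. Its log2 fold change was 0.48 (SE 0.08, edgeR quasi-likelihood adjusted p = 5.09e-04), between 0.43 and 0.53 in the alternatives, all of which kept the call. The other sestrin genes were also higher. SESN3 rose by 0.87 on the log2 scale (adjusted p = 5.02e-04) and SESN1 by 0.36 (edgeR adjusted p = 0.0209), the latter lost without Huh7 LR replicate 3 (adjusted p = 0.108) or Huh7 P replicate 1 (adjusted p = 0.0921).

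TRIB3 (ENSG00000101255, chromosome 20, 362835 to 397559, plus strand) encodes a pseudokinase that feeds back on ATF4 and CHOP. It had 65.1, 62.6 and 66.8 CPM in Huh7 P and 59.3, 42.1 and 42.1 CPM in Huh7 LR. Huh7 LR replicate 1 lay close to the parental libraries and the other two well below them. The log2 fold change of -0.44 (SE 0.12, edgeR quasi-likelihood adjusted p = 0.0116) was -0.62 without Huh7 LR replicate 1, and the call was lost without Huh7 LR replicate 3 (-0.36, adjusted p = 0.0561). TRIB1, a related pseudokinase gene, was higher (log2 fold change 0.67, adjusted p = 9.29e-05), and TRIB2 had too few counts to test.

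CHAC1 (ENSG00000128965, chromosome 15, 40952962 to 40956519, plus strand) encodes an enzyme that breaks down glutathione. CHAC1 had 6.34, 7.93 and 7.22 CPM in Huh7 P and 6.47, 5.58 and 4.53 CPM in Huh7 LR, with overlap between the lines. Its log2 fold change of -0.37 (95% interval -0.71 to -0.04) did not pass (edgeR quasi-likelihood adjusted p = 0.0678), and it passed without Huh7 LR replicate 1 (-0.50, adjusted p = 0.0201). CHAC2, which encodes a related enzyme, was lower (log2 fold change -0.87, adjusted p = 1.11e-04).

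**Figure D2:**
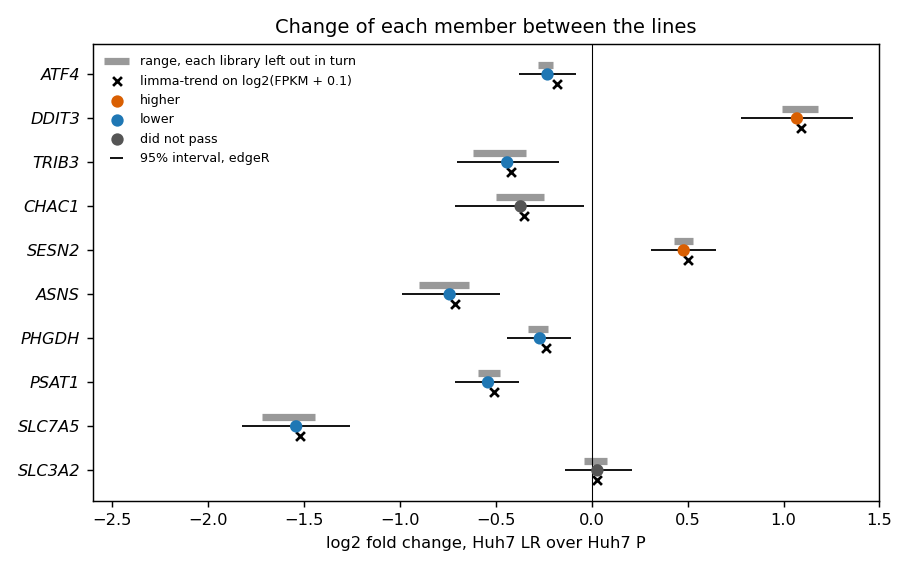
Log2 fold change of each member (points, with 95% intervals from edgeR, orange for higher, blue for lower and grey for not passed), the range with each library left out in turn (grey bars) and the value from limma-trend on log2(FPKM + 0.1) (crosses). SLC7A5 at -1.54 and DDIT3 at 1.07 are at opposite ends, and the interval of SLC3A2 (-0.14 to 0.21) spans 0.

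ASNS (ENSG00000070669, chromosome 7, 97852118 to 97872542, minus strand) encodes asparagine synthetase, and its stretch with the core is printed above. It had 67.3, 61.4 and 68.3 CPM in Huh7 P and 48, 36 and 34.2 CPM in Huh7 LR, with all Huh7 LR libraries below all Huh7 P libraries. The mean fell from 65.7 ± 3.74 to 39.4 ± 7.52 CPM (SD, n = 3 each), with a log2 fold change of -0.74 (SE 0.12, edgeR quasi-likelihood adjusted p = 4.18e-04). All 14 alternatives kept this call, with values from -0.90 to -0.64. ASNSD1, a gene of related sequence, was also lower (log2 fold change -0.29, adjusted p = 0.0171), a call lost without Huh7 P replicate 2 (adjusted p = 0.0836) or 3 (adjusted p = 0.0789).

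PHGDH and PSAT1 encode the enzymes of the first and second steps by which cells make serine from a glycolytic intermediate. PSAT1 (ENSG00000135069, chromosome 9, 78297143 to 78330093, plus strand) had 434, 416 and 427 CPM in Huh7 P and 312, 298 and 267 CPM in Huh7 LR, without overlap. Its log2 fold change was -0.54 (SE 0.07, edgeR quasi-likelihood adjusted p = 1.61e-04), and all alternatives kept the call. PHGDH (ENSG00000092621, chromosome 1, 119648411 to 119744226, plus strand) had 392, 401 and 410 CPM in Huh7 P and 310, 361 and 325 CPM in Huh7 LR. All Huh7 LR libraries again lay below the parental ones (log2 fold change -0.27, SE 0.07, edgeR adjusted p = 0.0114), and the call was lost without Huh7 LR replicate 3 (-0.26, adjusted p = 0.0534). PSPH, the gene of the last step, was higher in Huh7 LR. It had a mean of 137 CPM in Huh7 P and 165 CPM in Huh7 LR, which is 0.27 on the log2 scale (edgeR quasi-likelihood adjusted p = 0.0108) that was no longer called without Huh7 P replicate 3 (adjusted p = 0.0513) or in limma-trend on FPKM (adjusted p = 0.0554 and 0.0546 with pseudocounts of 0.1 and 1).

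SLC7A5 and SLC3A2 encode the light and heavy chains of LAT1-4F2hc, an exchanger that brings leucine and other large neutral amino acids into the cell. SLC7A5 (ENSG00000103257, chromosome 16, 87830023 to 87869488, minus strand) had 175, 161 and 153 CPM in Huh7 P and 50.2, 69.6 and 48.2 CPM in Huh7 LR. It showed the largest change of the 10 members, from 163 ± 10.8 to 56.0 ± 11.9 CPM (SD, n = 3 each), or 2.91-fold lower (log2 fold change -1.54, SE 0.13, edgeR quasi-likelihood adjusted p = 5.19e-06). All 14 alternatives kept the call, between -1.72 and -1.44, and 1.35% of all genes and loci tested had a log2 fold change as low or lower. SLC3A2 (ENSG00000168003, chromosome 11, 62856102 to 62888875, plus strand) had 222, 228 and 218 CPM in Huh7 P and 214, 254 and 217 CPM in Huh7 LR, which overlapped. Its log2 fold change was 0.03, with a 95% interval of -0.14 to 0.21 (adjusted p = 0.753), so that neither direction was shown, and it was -0.04 without Huh7 LR replicate 2.

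The chains were also compared within each library. The ratio of SLC7A5 to SLC3A2 in FPKM was 0.335, 0.301 and 0.299 in Huh7 P, against 0.101, 0.119 and 0.0979 in the Huh7 LR libraries. The lines did not overlap, and the difference in log2 ratio was -1.56 (two-sided exact permutation test, p = 0.1, the smallest value that 3 samples against 3 allow). On CPM it was -1.59. Leaving out single libraries gave -1.65 to -1.5.

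By level per length, the members kept a wide range in both lines. In Huh7 P, ATF4 (199 ± 28.1 FPKM), PHGDH (194 ± 12.7 FPKM) and PSAT1 (182 ± 3.05 FPKM) were the highest, and neighbours in this order overlapped between libraries. SLC3A2 followed at 106 ± 2.43 FPKM, then SLC7A5 (33.0 ± 2.51 FPKM) and ASNS (30.7 ± 1.69 FPKM), which overlapped. TRIB3 (24.3 ± 0.768 FPKM), SESN2 (9.57 ± 0.394 FPKM), DDIT3 (6.83 ± 0.642 FPKM) and CHAC1 (4.11 ± 0.337 FPKM) were separate steps below. In Huh7 LR the order of means from ATF4 to SLC3A2 was the same, although ATF4 overlapped with PHGDH, and PSAT1 with SLC3A2. SLC7A5 moved from position 5 in Huh7 P to position 9 in Huh7 LR. There ASNS (18.9 ± 3.63 FPKM), TRIB3 (18.3 ± 3.88 FPKM), DDIT3 (14.7 ± 2.04 FPKM), SESN2 (13.6 ± 1.00 FPKM) and SLC7A5 (11.5 ± 2.36 FPKM) each overlapped with the next, and CHAC1 stayed lowest at 3.24 ± 0.668 FPKM.

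The Huh7 LR libraries did not move alike for all members. Relative to the mean of its line in log2 CPM, Huh7 LR replicate 1 was 0.33 higher for TRIB3, 0.30 for ASNS and 0.24 for CHAC1, and 0.14 lower for SLC7A5. Huh7 LR replicate 2 was 0.33 higher for SLC7A5 and 0.16 higher for SLC3A2. Huh7 LR replicate 3 was the lowest of its line for 5 of the 10 members, and Huh7 LR replicate 1 the highest for 6. In Huh7 P no member deviated by more than 0.17 from the mean of the line.

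**Figure D3:**
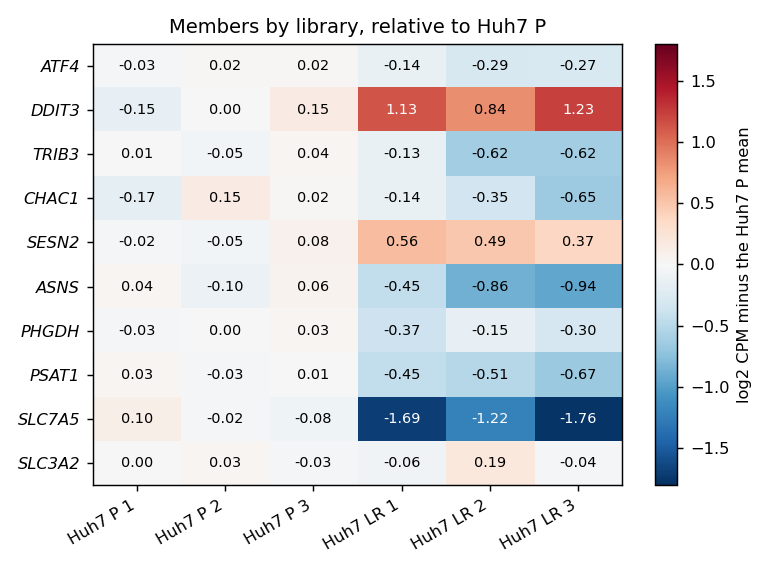
Log2 CPM of each member (rows) in each library (columns) minus the mean of the 3 Huh7 P libraries, with the value printed in each cell. TRIB3 is at -0.13 in Huh7 LR replicate 1 and -0.62 in both other Huh7 LR libraries, while SLC7A5 is at -1.69, -1.22 and -1.76.

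The wider ATF4 programme was examined with a list of 43 further target genes, of which 42 had enough counts to test. In Huh7 LR 19 of them were lower, 12 were higher and 11 did not pass, with a median log2 fold change of -0.26, beside 22.4% lower and 23.3% higher over all genes and loci tested. The genes lower past 2-fold were ALDH1L2 (mitochondrial folate enzyme, log2 fold change -2.15), PYCR1 (proline synthesis, -1.71), SLC7A11 (cystine uptake, -1.38), MTHFD1L (-1.36) and SLC7A1 (cationic amino acid uptake, -1.07). PYCR1 fell from a mean of 70.3 to 21.4 CPM. SLC7A11 kept its call at an adjusted p under 0.05 in every alternative but not its place past 2-fold, which it lost in 8 of 14, among them without Huh7 LR replicate 3 (adjusted p = 0.00602) and without any of the Huh7 P replicates (adjusted p = 0.00257 to 0.00552). Higher were NUPR1 (stress-induced transcription regulator, 2.91, from 0.622 to 4.71 CPM and from 0.173 to 2.29 FPKM, with Huh7 LR replicate 1 at 0.987 FPKM and the others at 3.09 and 2.79), ATF3 (1.02) and KLHL24 (0.98). ATF3, a transcription factor induced with CHOP, went from 2.56 to 5.22 CPM and kept its call throughout, but was below 2-fold or the stricter p in 7 of 14 alternatives, with adjusted p values of 0.00135 to 0.00465 without any of Huh7 LR replicates 1 and 3 and Huh7 P replicates 1, 2 and 3. Also higher were GDF15 (stress-secreted cytokine, 0.84, adjusted p = 4.46e-04), INHBE (0.91, adjusted p = 0.00334), VLDLR (0.79), VEGFA (0.61) and PPP1R15A (eIF2alpha phosphatase subunit, 0.40, adjusted p = 0.00194, all from edgeR's test). Lower members of the list included EIF4EBP1 (-0.44), STC2 (-0.59) and XPOT (tRNA export, -0.48). FGF21 had too few counts to test.

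**Figure D4:**
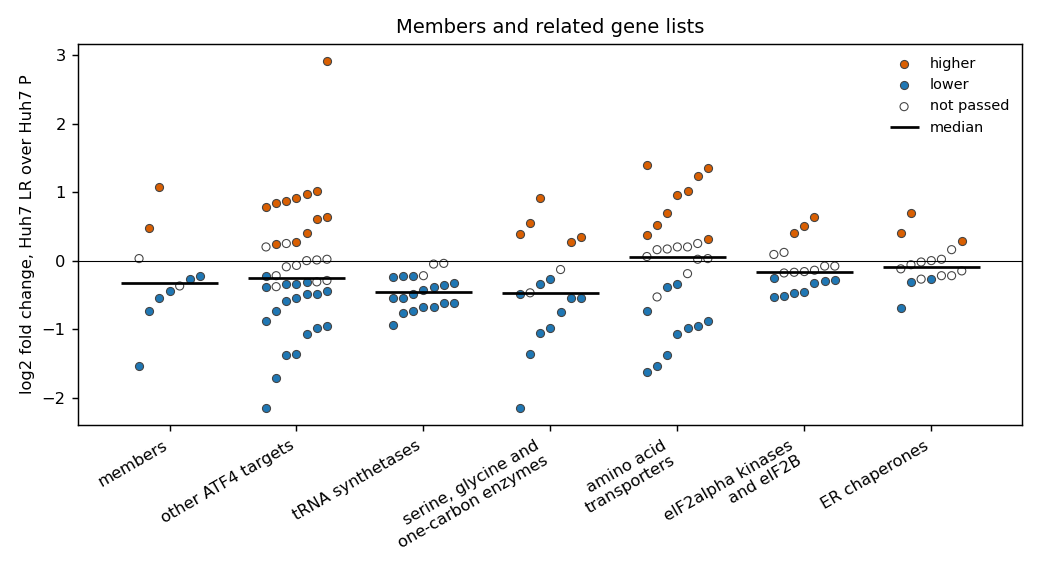
Log2 fold changes of the members and of 6 related lists, with 1 point for each gene tested (orange higher, blue lower at an adjusted p under 0.05, open not passed) and a bar at each list's median. The synthetase list has no higher gene and a median of -0.45, while the transporter list has 9 higher and 10 lower genes and a median of 0.06.

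Cytosolic aminoacyl-tRNA synthetases attach amino acids to their tRNAs, and many are ATF4 targets. Of the 20 genes, 17 were lower in Huh7 LR, 0 were higher and 3 did not pass (GARS, MARS and RARS), with a median log2 fold change of -0.45, beside 22.4% lower and 23.3% higher over all genes and loci tested. All 20 had a log2 fold change below 0, from -0.94 to -0.04. Summed over the list, the level was 3797 to 3920 CPM in Huh7 P and 2683 to 2821 CPM in Huh7 LR. The lowest were EPRS (from a mean of 411 to 214 CPM, log2 fold change -0.94, adjusted p = 2.67e-05), YARS (-0.76, adjusted p = 1.45e-05) and WARS (-0.73, edgeR adjusted p = 3.09e-05). The number of lower genes was 13 to 17 when single libraries were left out, and GARS passed without Huh7 LR replicate 1 (adjusted p = 0.0157). AARS, CARS, GARS, NARS, SARS and WARS are also in the list of further ATF4 targets.

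**Figure D5:**
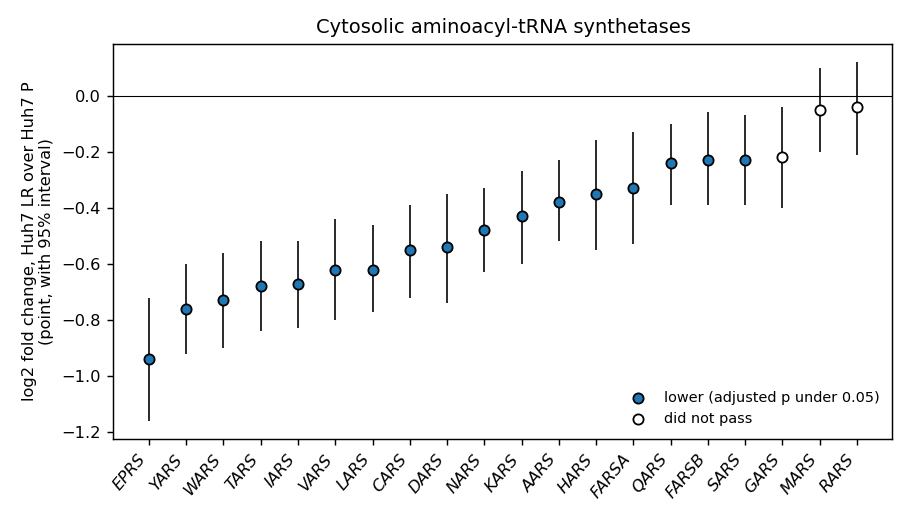
Log2 fold change and 95% interval from edgeR for the 20 cytosolic aminoacyl-tRNA synthetase genes, ordered by value, filled where the adjusted p was under 0.05. All points lie below 0, from EPRS at -0.94 to RARS at -0.04.

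In the list of serine, glycine and one-carbon enzymes, which holds PHGDH and PSAT1 and shares ALDH1L2, MTHFD1L, MTHFD2, PSPH and SHMT2 with the further ATF4 targets, 10 of 17 genes tested were lower, 5 were higher and 2 did not pass, beside 22.4% lower and 23.3% higher over all genes and loci tested. Without PHGDH and PSAT1 the numbers were 8 lower and 5 higher of 15, with a median log2 fold change of -0.47. The folate enzymes MTHFD1 (-1.06, from a mean of 87.5 to 41.9 CPM), MTHFD1L (-1.36, from 68.6 to 26.7 CPM) and MTHFD2 (-0.98, from 90.5 to 46.0 CPM) were lower, with ALDH1L2 at -2.15. The higher genes included GLDC, which breaks down glycine (0.55), and MTHFS (0.39). SHMT2, the mitochondrial serine hydroxymethyltransferase gene, was lower (-0.34, adjusted p = 0.00124), and SHMT1, that of the cytosolic enzyme, higher (0.35, edgeR adjusted p = 0.00127).

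Amino acid transporters were examined with a list that holds SLC7A5 and SLC3A2 and shares SLC7A1, SLC7A11, SLC1A4, SLC1A5, SLC6A9, SLC38A2 and SLC43A1 with the further ATF4 targets. Of 29 tested, 9 were higher, 10 lower and 10 did not pass, beside 22.4% lower and 23.3% higher over all genes and loci tested. Without SLC7A5 and SLC3A2 the numbers were 9 higher and 9 lower of 27, with a median log2 fold change of 0.16 in place of 0.06. SLC6A14 (-1.62), SLC7A5, SLC7A11 and SLC7A1 were the lowest, and SLC1A5, which carries glutamine, fell from a mean of 227 to 123 CPM (-0.88, adjusted p = 3.32e-06). The highest were SLC38A4 (1.39, from 2.01 to 5.29 CPM), SLC38A3 (1.35, from 17.3 to 44.0 CPM) and SLC1A1 (1.24, from 23.9 to 56.5 CPM). Of other light chains that pair with the SLC3A2 product, SLC7A11 was lower, as given above, and SLC7A7, SLC7A6 and SLC7A10 (0.52, adjusted p = 9.16e-04) were higher. SLC7A7 had a mean of 72.4 CPM in Huh7 P and 146 CPM in Huh7 LR (log2 fold change 1.01, adjusted p = 4.34e-05), and SLC7A6 had 96.5 and 121 CPM (0.32, edgeR quasi-likelihood adjusted p = 0.0199). SLC7A6 was no longer called without Huh7 P replicate 1 (adjusted p = 0.0628) or 3 (adjusted p = 0.0821), and SLC7A7, whose call held throughout, was at 0.86 without Huh7 LR replicate 2, 0.98 without Huh7 P replicate 1 and 0.99 without Huh7 P replicate 2. SLC7A8 had too few counts to test.

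Upstream of ATF4, 3 of 19 genes of the eIF2alpha kinases and the eIF2B axis were higher, 8 lower and 8 did not pass, with a median log2 fold change of -0.17, beside 22.4% lower and 23.3% higher over all genes and loci tested. One of the higher genes, PPP1R15A, is also in the list of further ATF4 targets and was given there. Among the kinases, EIF2AK1, which encodes HRI, went from a mean of 166 to 256 CPM (0.63, adjusted p = 2.6e-05), and EIF2AK4, which encodes GCN2, from 18.6 to 26.4 CPM (0.51, adjusted p = 3.32e-04). EIF2AK2, which encodes PKR, was lower (-0.32, adjusted p = 0.00851), and EIF2AK3, which encodes PERK, did not pass (0.09, edgeR adjusted p = 0.401). EIF2S1, the gene of eIF2alpha, was among the lowest of the list (-0.53, edgeR adjusted p = 8.87e-05), with EIF2A (-0.52) and EIF2B3 (-0.47). Despite its symbol, EIF2A is not the gene of eIF2alpha. The phosphorylation of eIF2alpha cannot be read from RNA.

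Endoplasmic reticulum chaperones and other genes that the ATF6 and XBP1 arms of the unfolded protein response induce were also examined. Of 16 genes 3 were higher (HERPUD1 at 0.69, EDEM1 at 0.41 and DNAJB9 at 0.28), 3 lower (HSP90B1 at -0.69, HSPA5 at -0.31 and PDIA6 at -0.27) and 10 did not pass, beside 22.4% lower and 23.3% higher over all genes and loci tested. Of the higher genes, HERPUD1 and EDEM1 act in the degradation of misfolded proteins and DNAJB9 is a co-chaperone. HERPUD1 (adjusted p = 1.5e-05), EDEM1 (adjusted p = 0.00529) and HSP90B1 (edgeR adjusted p = 2.49e-05) kept their calls in all alternatives. DNAJB9 was lost without Huh7 LR replicate 3 or Huh7 P replicate 1 or 2 (adjusted p = 0.0892 to 0.147), and PDIA6 without Huh7 LR replicate 3 or Huh7 P replicate 2 or 3 (adjusted p = 0.0762 to 0.0898). HSPA5, the gene of BiP, was called at an adjusted p of 0.0445 and was lost in 8 of 14 alternatives, among them the leaving out of every library but Huh7 LR replicate 2. The number of lower genes was 6 without Huh7 LR replicate 2 and 1 without Huh7 LR replicate 3 or Huh7 P replicate 2.

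Of the members' paralogs not yet described, CEBPG, a C/EBP partner of ATF4, was higher, with a log2 fold change of 0.24 (edgeR quasi-likelihood adjusted p = 0.0266) that was lost with any library but Huh7 LR replicate 2 left out (adjusted p = 0.0621 to 0.0963). CEBPB (0.25, adjusted p = 0.17, and 0.0270 without Huh7 LR replicate 2), ATF5 (0.01, adjusted p = 0.976) and SLC3A1 (0.16, adjusted p = 0.176) did not pass.

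The members lie on 9 chromosomes, so their genomic neighbourhoods were compared. Over the tested genes within 5 Mb of each member, the median log2 fold change was between -0.18 (PSAT1, 16 genes) and 0.21 (PHGDH, 30 genes). Around SLC7A5 it was 0.03 over 63 genes, around ASNS 0.01 over 126 genes and around DDIT3 0.00 over 137 genes, beside values of -1.54, -0.74 and 1.07 for the members themselves.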

How the data were processed

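Poly(A) RNA of 3 Huh7 P and 3 Huh7 LR samples was sequenced by a company, and the labels name NEBNext Ultra libraries. The authors deposited a raw read count per gene and library, without normalization, and FPKM values scaled by the authors for length and library size. The submitters' processing notes name TopHat2, Cufflinks and DESeq without roles, and the mouse build mm10, although the identifiers are human. The labels' extraction text describes an insect. The counter, its annotation and its strand setting are not given in the sources used here. A total of 34 lines of text that name no gene were left out. Depth was 62738937 to 71427573 counts per library, of which 2.86% to 3.35% fell on loci without a gene.

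The count analysis used edgeR 4.0.16 under R 4.3.3 (filterByExpr with minimum count 10 and minimum total 15, TMM factors of 0.977 to 1.03, quasi-likelihood test, Benjamini-Hochberg adjustment over all genes and loci tested). Each standard error (SE) is the absolute log2 fold change over the square root of F. Coordinates are those of GENCODE release 29 (GRCh38), which holds all 19974 annotated identifiers. Alternatives were DESeq2's size factors, upper quartile factors, the Wald test of DESeq2 1.42.0, other count filters, a replicate block, limma-trend (limma 3.58.1) on FPKM in log2 with a pseudocount of 0.1 or 1 (genes reaching 0.5 FPKM in 3 or more libraries), and each library left out in turn. The tests were also run on simulated data with few changed genes, a setting unlike these data, and no result here rests on that run. The members and lists were chosen with earlier results of these data known. Named were all members and their paralogs, list genes past 2-fold, the 3 highest and 3 lowest called genes of each list, and the 5 genes most like the members. A gene that this rule names in the enzyme list is not reported here. Other list genes were chosen after their values were seen. Figures were drawn with matplotlib 3.10.9.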

Additional observations from a re-analysis of the deposited data

How the results depend on the processing

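The comparisons covered 217 values of counts and of the transporter ratio. Of these, 7 counts moved by over 1.5 times, while the ratio was checked for its sign only, which was kept throughout. The comparisons also covered 140 log2 fold changes of members, of which 131 had an unchanged call and sign, 7 no longer passed, 1 newly passed and 1 changed sign. With limma-trend on log2(FPKM + 1), 1 member was past 2-fold in place of 2. With each library left out in turn, 3 to 7 members were lower (3 without Huh7 LR replicate 3, where ATF4, TRIB3 and PHGDH no longer passed), 1 to 2 were past 2-fold (1 without Huh7 LR replicate 3 or Huh7 P replicate 1), and 1 to 6 endoplasmic reticulum genes of the ATF6 and XBP1 arms were lower. SLC3A2, not called, ranged from -0.04 (without Huh7 LR replicate 2) to 0.08. The cause of these changes was not tested, and such fits have fewer samples. Upper quartile factors moved the median of all genes tested to 0.05. The share of higher calls was 51.1%, and 50.3% to 56.4% in the alternatives. The lines share replicate numbers 1 to 3, but deviations of same-numbered samples correlated at 0.029, 0.0314 and 0.0317 only, so the numbers were not taken to pair the samples, although each sample correlated best with its own number. With the replicate block, 2 members were higher and 6 lower, as without it, and 8122 genes and loci were called in place of 8016.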

Other observations

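The count and FPKM values of ATF4 did not move together between libraries. The transcript length that the FPKM values imply, from each count, its FPKM and the library total, was 1.58 kilobases in Huh7 P replicate 1 and Huh7 LR replicate 3 and 1.96 to 2.03 in the other libraries. PHGDH showed a split of the same libraries, with 2.2 and 2.21 against 1.96 to 1.99. For the other 8 members the highest and lowest implied lengths differed by factors of 1.02 to 1.05. The 2 members concerned are those whose lines overlapped in FPKM but not in CPM.

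Over the 6 libraries, the mean log2 CPM of the 10 members was 6.37, 6.38 and 6.42 for Huh7 P, against 6.22, 6.14 and 6.02 for Huh7 LR. Among 12283 annotated genes with at least 1 CPM, those with the most similar pattern were MANSC1, NR2F1, YBX3, ADAP1 and GAL3ST1, with Pearson's r from 0.989 to 0.999. Their log2 fold changes lay between -1.04 (GAL3ST1) and -0.24 (MANSC1). The 6 points fall into the lines, and 845 genes had an r above 0.9, so the likeness is a description of these libraries.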
